A study of Homo sapiens with 4 samples.

Results

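The genes described here are 41 genes of the Fanconi anemia and homologous recombination pathways, chosen by symbol as probe sets whose only annotated symbol, current or older, is on the list. Of the 41 genes, 37 had such a probe set, 81 probe sets in all, and FANCA, FANCD2, BRCA2 and RBBP8 were not analysed here. The 37 genes stand among 14349 tested genes of the whole array, and each of the 37 passed the filter on low signals. Expression was measured on 4 Affymetrix arrays with biotin-labelled material from total RNA of HCT116, a cell line derived from a human colorectal carcinoma. The cells were either HCT116 wt or a version labelled HCT116 wt/GFP, for which no treatment, time or origin of the GFP is given. Each of the 2 lines was grown as a monolayer, flat on a surface, and as spheroids, which are round multicellular aggregates, with 1 array for each of the 4 combinations. Nothing in the labels says how many cultures lay behind an array, so p-values do not measure a spread between cultures. With 1 residual degree of freedom, they rest mainly on the spread of genes of like signal on these arrays, which may be technical.

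The Fanconi pathway repairs crosslinks that tie the strands of DNA together and block replication forks. A core complex of Fanconi proteins with the conjugating enzyme UBE2T attaches ubiquitin to a clamp of FANCD2 and FANCI, after which nucleases cut the crosslink out and recombination repairs the break. In homologous recombination, broken ends are trimmed to single strands, and BRCA1, PALB2 and BRCA2 prepare the strand for pairing with an intact sister copy. Because a sister copy is needed, the pathway works mainly in S and G2 phase, and many of its genes are known to be transcribed mostly in dividing cells. HCT116 is known to be deficient in mismatch repair.

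Most of these repair genes were lower in spheroids. By gene, 22 of 37 fell and 2 rose, against a background of 18.5% of all tested genes that fell and 30.6% that rose (limma, adjusted p under 0.05). As shares, 59.5% of the tested repair genes fell and 5.41% rose. Called in either direction were 24 of 37, against 49.1% of all genes. A fall of at least 2-fold was reached by 13 of 37, or 35.1%, against 5.04% of all genes, and a rise of that size by 1, against 14.8%. XRCC3, counted among these falls, was dim and passed the filter on low signals only through its monolayers. The median log2 change, spheroids minus monolayer, was -0.70 for the repair genes and 0.23 for all genes, a distance of -0.92. In bulk RNA, fewer cells in S or G2 phase and less RNA per cell cannot be told apart. Both spheroid signals lay below both monolayer signals for 27 of 37 repair genes, against 26.5% of all genes, and above them for 5, against 47.1%. The signals of the other 5 overlapped between the cultures. The log2 change was below 0 in both lines for 27, against 4215 of all 14349 genes, and above 0 in both for 7, against 7373. It was of opposite sign for 3, against 19.2% of all genes. The 2 genes that rose were ATM and FANCL.

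**Figure D1:**
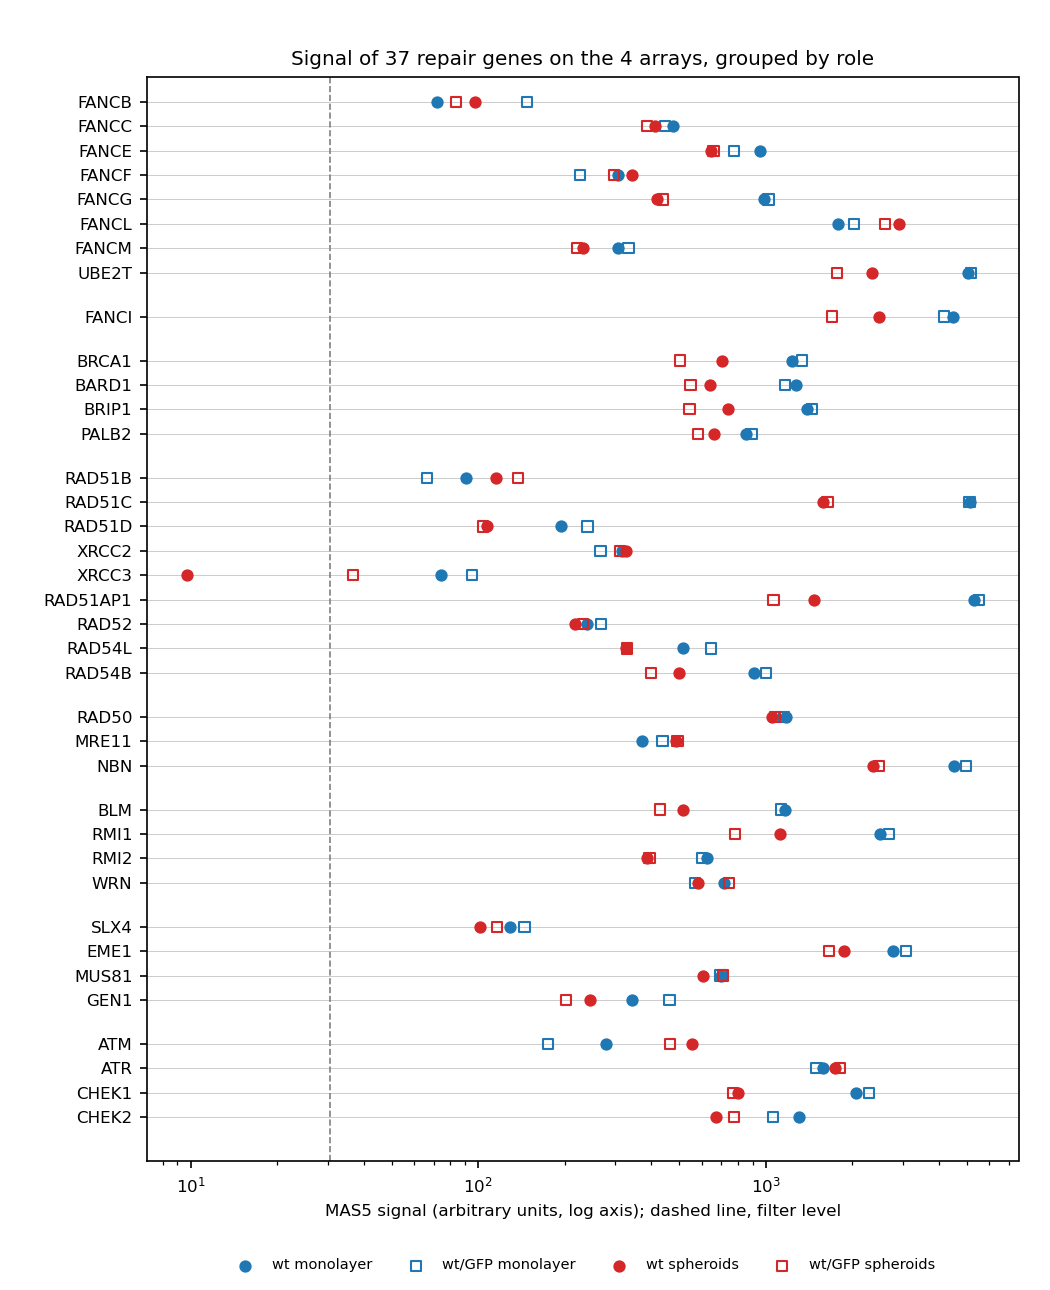
MAS5 signal on a log axis (arbitrary units) of each of the 37 repair genes on the 4 arrays, with circles for HCT116 wt, squares for HCT116 wt/GFP, blue for monolayers and red for spheroids; the dashed line is the filter level, a signal of 30.6. The red points lie left of the blue ones for 27 genes and right of them for 5, ATM and FANCL among them.

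Across all arrays, the trimmed mean of the deposited signals was 500.1, and the median signal was 48 to 48.8 in monolayers and 67.3 to 68.4 in spheroids. The ratio of 3' to 5' probe sets of ACTB, a measure of RNA integrity, was 1.30 to 1.32 in monolayers and 1.73 to 1.76 in spheroids. The same ratio for GAPDH was 0.897 and 0.882 in monolayers of wt and wt/GFP, and 0.868 and 0.951 in their spheroids. The part of RNA integrity in the results was not tested. Of the markers of colon epithelium, the keratin KRT18 had signals of 25741 to 32967 and the adhesion molecule EPCAM of 19611 to 29302, while the intestinal transcription factor CDX2 was at 33.1 to 81.6 and CDX1, its relative, lay below the filter level on every array. Of 9 tested epithelial markers 5 rose and 0 fell, against 30.6% and 18.5% of all genes. VIL1, among those that rose, had signals of 16.1 and 28.8 in monolayers and 90.7 and 73.6 in spheroids. It passed the filter on low signals only through its spheroids. CEACAM5, which was not called, went from 74.6 to 17.5 in wt and from 27.8 to 204 in wt/GFP. CDH1, the epithelial cadherin, had signals of 916 and 889 in monolayers and 4493 and 4866 in spheroids, and KRT20, a keratin of differentiated colon cells, 112 and 155 in monolayers and 798 and 832 in spheroids. They rose by 2.36 ± 0.12 and 2.51 ± 0.21 (adjusted p = 8.72e-15 and 1.21e-10), and their part in the results was not tested. The summed signal of the 10 epithelial markers, carried by the brightest of them, was 86600 to 105000 in monolayers and 114600 to 115900 in spheroids. The summed signal of 13 markers of fibroblasts, endothelium and leukocytes was 621 to 729 in monolayers and 3045 to 4697 in spheroids. Within that sum COL1A1, a fibroblast collagen, was at 303 and 338 in monolayers and at 2275 and 3780 in spheroids. LYZ, a lysozyme, was at 32.0 and 9.61 and at 290.3 and 328. DCN was at 47.9 and 79.1 and at 49.6 and 71.8, and CD3E at 68.0 and 29.6 and at 43.1 and 29.5. COL1A2, LUM and CD14 were below the filter level on every array. Of 6 tested markers on that list 3 rose and 0 fell, against 30.6% and 18.5% of all genes. Among the risers, LYZ and COL3A1 passed the filter only through their spheroids. No marker was at 0, since these signals are always positive, and the part of other cells in the results was not tested. Of 10 reference genes of S phase and mitosis, 10 fell, against 18.5% of all genes, with a median log2 change of -1.86. This list was chosen with earlier results of these data known, so the count is a description only. The part of fewer dividing cells in the results was not tested.

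The promoters of 4 genes with large falls are shown beside those of the 2 that rose, since genes that move together may share promoter letters. Each line holds the 150 bases before the RefSeq start site in GRCh38.p14, 5' to 3' on the gene's strand, for windows that overlap no other gene. RMI1, whose fall ranks between those of XRCC3 and CHEK1, is not shown because its window overlaps another gene. XRCC3 was dim and passed the filter on low signals through its monolayers. Capitals mark TTTGAA, the letters of the cell cycle homology element, CCAAT, the box bound by NF-Y, and TTCCCGCC, an E2F-type site, on either strand, so that ATTGG and GGCGGGAA are the opposite-strand forms.
RAD51AP1, chr12:4538740-4538889, + strand: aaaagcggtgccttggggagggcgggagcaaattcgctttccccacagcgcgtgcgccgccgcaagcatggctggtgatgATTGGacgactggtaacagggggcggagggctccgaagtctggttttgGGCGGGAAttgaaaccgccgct
RAD51C, chr17:58692423-58692572, + strand: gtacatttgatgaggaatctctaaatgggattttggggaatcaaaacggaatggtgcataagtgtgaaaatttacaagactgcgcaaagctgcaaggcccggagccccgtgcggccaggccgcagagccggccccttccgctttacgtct
XRCC3, chr14:103715452-103715601, - strand: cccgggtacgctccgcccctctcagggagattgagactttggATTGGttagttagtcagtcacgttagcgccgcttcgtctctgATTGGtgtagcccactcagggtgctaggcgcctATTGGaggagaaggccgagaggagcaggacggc
CHEK1, chr11:125626079-125626228, + strand: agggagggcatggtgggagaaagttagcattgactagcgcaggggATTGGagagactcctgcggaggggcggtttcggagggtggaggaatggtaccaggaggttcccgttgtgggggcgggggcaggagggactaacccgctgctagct
FANCL, chr2:58241326-58241475, - strand: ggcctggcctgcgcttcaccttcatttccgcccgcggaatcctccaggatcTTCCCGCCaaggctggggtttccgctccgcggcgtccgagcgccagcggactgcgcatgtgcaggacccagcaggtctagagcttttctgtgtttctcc
ATM, chr11:108222917-108223066, + strand: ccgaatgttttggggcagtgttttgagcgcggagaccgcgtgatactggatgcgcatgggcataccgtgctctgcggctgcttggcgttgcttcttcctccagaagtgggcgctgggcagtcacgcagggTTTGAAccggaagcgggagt

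These words were counted on both strands in 300-base promoters, 250 bases before and 50 after the start site, which the RefSeq table held for 32 of the 37 tested genes. The E2F-type words TTTCCCGC, TTTCGCGC, TTTGCCGC and TTTGGCGC occurred in 3 of 32 repair genes, or 9.4%, against 5.0% of 11506 promoters of tested genes and 3.3% of all 27305 promoters. They were present in FANCC, XRCC2 and GEN1, of which GEN1 fell. TTTGAA occurred in 4 of 32, or 12.5%, against 10.1% of tested genes and 15.4% of all promoters. It lay in UBE2T and BRIP1, which fell, in ATM, which rose, and in FANCC. CCAAT and TTCCCGCC were added after the promoters had been read. CCAAT occurred in 15 of 32, or 46.9%, against 36.3% of tested genes and 35.7% of all promoters, and in 10 of 18 repair genes that fell (55.6%), 1 of 2 that rose and 4 of 12 not called (33.3%), against 41.5% of all genes called lower. TTCCCGCC occurred in 8 of 32, or 25%, against 4.8% of tested genes and 3.2% of all promoters. It was in 5 of 18 genes that fell, 1 of 2 that rose and 2 of 12 that were not called, against 6.9% of all genes called lower. TTCCCGCC can share letters with TTTCCCGC and, at its end, with CCAAT, and such matches were counted for each word. A match describes these letters only, and no test was run.

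In the Fanconi core complex, the ubiquitin-conjugating enzyme and FANCG fell while the ligase subunit rose. UBE2T, the conjugating enzyme of the pathway, had signals of 5036 and 5179 in monolayers of wt and wt/GFP, and of 2349 and 1767 in their spheroids. FANCG, a scaffold subunit of the core complex, had signals of 983 and 1022 in monolayers and 419 and 438 in spheroids. In both genes the spheroid signals were less than 1/2 of the monolayer signals in each line, and the groups did not overlap. UBE2T fell by 1.32 ± 0.12 (moderated SE, 2 arrays a culture) on the log2 scale, or 2.50-fold (limma, adjusted p = 8.58e-10). FANCG fell by 1.20 ± 0.16 (adjusted p = 4.04e-07). FANCL, the ubiquitin ligase subunit that acts with UBE2T, had signals of 1790.3 and 2027 in monolayers and 2916 and 2603 in spheroids. Its groups did not overlap either, but in the opposite order, and it rose by 0.53 ± 0.12 (adjusted p = 0.000748). The rise of FANCL depended on the scaling of the arrays, as its log2 change was 0.57 with quantile normalization, 0.14 (adjusted p = 0.390) with median centring and -0.065 (adjusted p = 0.913) with scaling to hybridisation controls. Without the wt monolayer array its adjusted p was 0.0721.

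Of the other subunits of the core complex, FANCE passed the test. FANCE, which links the core complex to FANCD2, fell by 0.39 ± 0.16 (adjusted p = 0.0391), a call lost with any of the 4 arrays left out (adjusted p = 0.0622 to 0.454). FANCM, a translocase that brings the core complex to DNA, had a log2 change of -0.47 ± 0.23 (adjusted p = 0.0892). FANCC, a bridging subunit, had -0.21 ± 0.19 (adjusted p = 0.386), and FANCF, an adaptor subunit, had 0.26 ± 0.22 (adjusted p = 0.345). Both FANCM and FANCC were called lower under each of 3 other scalings, FANCM at -0.81, -0.87 and -1.07 and FANCC at -0.47, -0.60 and -0.80 with quantiles, medians and hybridisation controls matched. FANCF was called higher, at 0.82, with the mean of its probe sets (adjusted p = 0.00667). FANCB, a core subunit, had signals of 71.7 and 148 in monolayers and 97.7 and 83.9 in spheroids. These spheroid signals lay between the monolayer signals, and the lines went opposite ways, with a log2 change of 0.38 in wt and -0.73 in wt/GFP. By its other tested probe sets, all dim, the change of FANCB was below 0 in both lines, and none was called.

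FANCI, the partner of FANCD2 in the clamp, fell by each of its 3 probe sets. Its brightest probe set had signals of 4481 and 4180 in monolayers and 2473 and 1699.8 in spheroids, with no overlap, and fell by 1.07 ± 0.12, or 2.10-fold (adjusted p = 3.69e-08). The other probe sets of FANCI fell by 1.33 and 1.91, so the fall was 2-fold or more by each of them.

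By their brightest probe sets, 4 of 4 tested genes of the BRCA1 axis fell, against the background of 18.5%. BRCA1, which directs broken ends into recombination, had signals of 1233 and 1340 in monolayers and 705 and 503 in spheroids. BARD1, its obligate partner in a ubiquitin ligase, had 1277 and 1164 in monolayers and 640 and 547 in spheroids. BRIP1, a helicase that binds BRCA1, had 1394 and 1452 in monolayers and 738 and 544 in spheroids. In each of these genes the spheroid signals were clearly apart from the monolayer signals, with the lowest in wt/GFP spheroids. BRCA1 fell by 1.09 ± 0.16, BARD1 fell by 1.02 ± 0.15 and BRIP1 fell by 1.15 ± 0.15, with adjusted p-values of 1.34e-06, 1.35e-06 and 2.86e-07. A dimmer probe set of BRCA1, at -0.56 ± 0.26, and the dimmest of BARD1, at -0.32 ± 0.28, did not pass (limma by probe set, adjusted p = 0.0890 and 0.373). PALB2, which joins BRCA1 to BRCA2, fell less, by 0.48 ± 0.16 (adjusted p = 0.0112). Its call was lost without the wt monolayer array (adjusted p = 0.0813) or the wt/GFP monolayer array (0.132).

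**Figure D2:**
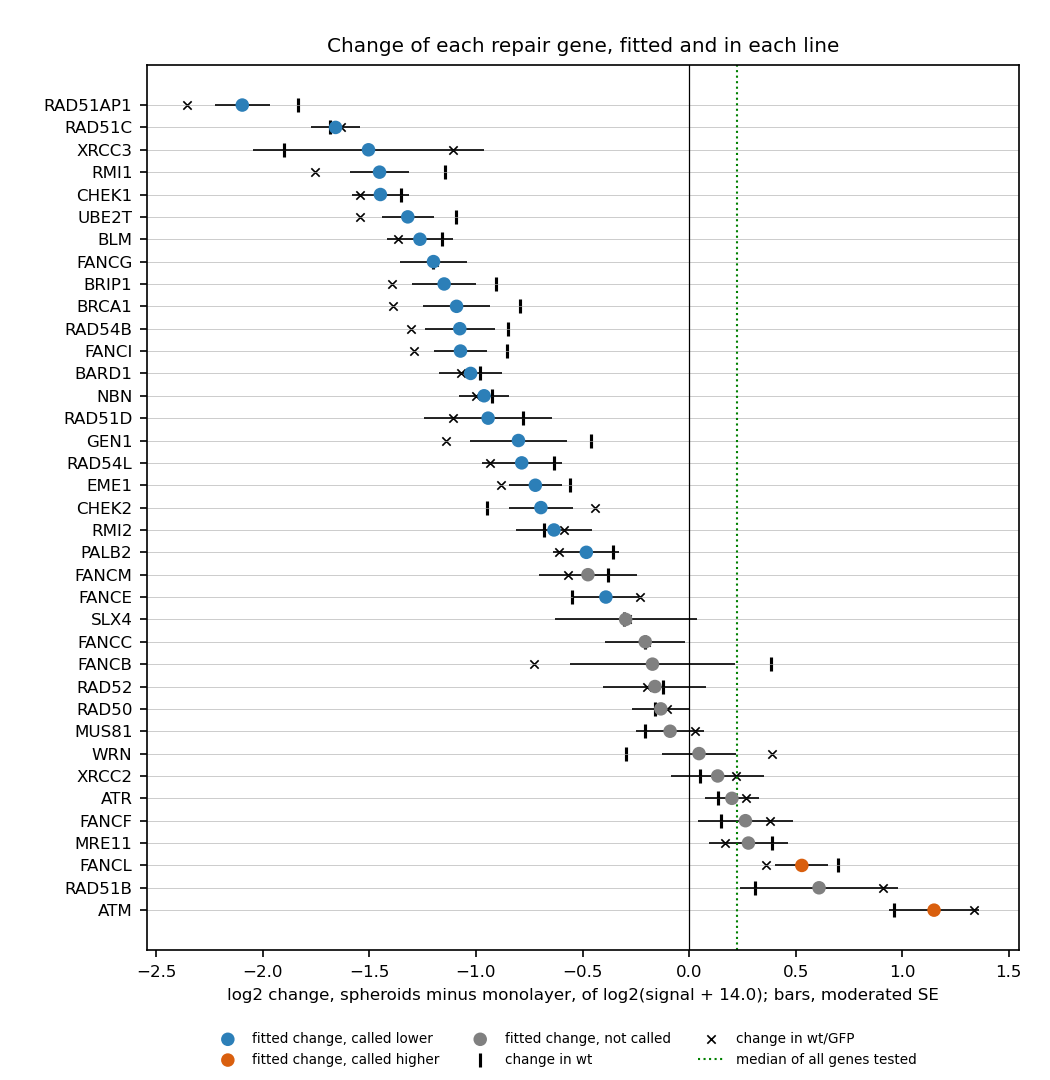
Log2 change of each of the 37 repair genes, spheroids minus monolayer, on log2(signal + 14), with the moderated SE as bars, coloured by call, and the change within wt (bar mark) and wt/GFP (cross); the dotted line is the median of all genes, 0.23. The 22 genes called lower run from RAD51AP1 at -2.10 to FANCE at -0.39, and FANCL at 0.53 and ATM at 1.15 are the 2 called higher.

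Among the genes of strand pairing, the largest fall was that of RAD51AP1, which stimulates that step. RAD51AP1 had signals of 5295 and 5512 in monolayers and 1474 and 1064 in spheroids. RAD51C, a subunit of both mediator complexes of recombination, had 5121 and 5115 in monolayers and 1583 and 1641 in spheroids. Both genes had groups that lay far apart, and the lines matched closely for RAD51C, with log2 changes of -1.69 in wt and -1.63 in wt/GFP. RAD51AP1 fell by 2.10 ± 0.13, or 4.28-fold (adjusted p = 2.11e-13), at percentile 0.314 of the changes of all tested genes. RAD51C fell by 1.66 ± 0.12, or 3.16-fold (adjusted p = 3.75e-12), at percentile 0.948. RAD54B and RAD54L, translocases that assist strand pairing on chromatin, fell by 1.08 ± 0.17 and 0.79 ± 0.19 (adjusted p = 3.98e-06 and 0.000967). For RAD54L the call was lost without the wt/GFP monolayer array (adjusted p = 0.0533).

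The other mediator subunits did not move together. XRCC3, a partner of RAD51C, had signals of 74.5 and 94.9 in monolayers and 9.69 and 36.6 in spheroids, so that the wt spheroid signal was below the filter level. It fell by 1.50 ± 0.54 (adjusted p = 0.0221), with the largest error among the repair genes. Without the wt monolayer, wt/GFP monolayer or wt spheroid array its adjusted p was 0.0866, 0.184 or 0.135. RAD51D had signals of 194 and 240.1 in monolayers and 107 and 104 in spheroids. It fell by 0.94 ± 0.30 (adjusted p = 0.0105). Without the wt/GFP monolayer array its change was -0.80 with the call lost (adjusted p = 0.0980), and the call was also lost with no filter (0.0609), with the mean of probe sets (0.0739) and without shared probe sets (0.321). XRCC2, the partner of RAD51D, had 316 and 266 in monolayers and 327 and 312 in spheroids, and the groups overlapped (log2 change 0.13 ± 0.22, adjusted p = 0.644). RAD51B, another partner of RAD51C, had signals of 90.6 and 66.6 in monolayers and 116 and 137 in spheroids. Its spheroid signals were higher in each line without passing the test (0.61 ± 0.37, adjusted p = 0.182). RAD52, which anneals single strands, had a log2 change of -0.16 ± 0.24 (adjusted p = 0.618).

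In the MRN complex, which senses and trims broken ends, 1 of 3 subunits fell. NBN, its regulatory subunit, had signals of 4504 and 4962 in monolayers and 2370 and 2472 in spheroids, with no overlap, and fell by 0.96 ± 0.12 (adjusted p = 7.49e-08). RAD50, the ATPase that tethers ends, had 1175 and 1161 in monolayers and 1049.7 and 1079 in spheroids. MRE11, the nuclease, had 371 and 437 in monolayers and 489 and 494 in spheroids. These 2 subunits did not pass the test, with log2 changes of -0.13 ± 0.14 for RAD50 (adjusted p = 0.446) and 0.28 ± 0.19 for MRE11 (adjusted p = 0.225). With median centring RAD50 was called lower, at -0.52 (adjusted p = 0.00211), and it was at -0.73 (adjusted p = 0.0910) with scaling to hybridisation controls. The difference between NBN and its partners was not tested.

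Of the helicases and the genes that dissolve joined chromosomes, BLM and its partners fell, while WRN did not pass the test. RMI1, a subunit of the BLM dissolution complex, had signals of 2500 and 2683 in monolayers and 1121 and 784 in spheroids. BLM, the RecQ helicase of that complex, had 1166 and 1132 in monolayers and 515 and 429.8 in spheroids. Both lay wholly below their monolayer signals, and RMI1 fell by 1.45 ± 0.14 (adjusted p = 1.39e-09) and BLM fell by 1.26 ± 0.15 (adjusted p = 1.06e-07). RMI2, the smaller partner of RMI1, fell by 0.63 ± 0.18 (adjusted p = 0.00396), and without the wt monolayer array the change was -0.60 with the call lost (adjusted p = 0.0563). WRN, a related helicase, had signals of 714 and 566 in monolayers and 580 and 745 in spheroids. Its signal was lower in the spheroids of wt and higher in those of wt/GFP, and the fitted log2 change was 0.047 ± 0.17 (adjusted p = 0.850).

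Among the nucleases that cut crosslinks and joined strands, EME1 and GEN1 fell. EME1, the partner of MUS81, had signals of 2776 and 3083 in monolayers and 1879 and 1665 in spheroids, and fell by 0.72 ± 0.12 (adjusted p = 1.78e-05). MUS81, the catalytic subunit of the pair, had 702 and 697 in monolayers and 606 and 711 in spheroids. Its groups overlapped, unlike those of EME1, with a log2 change of -0.089 ± 0.16 (adjusted p = 0.678). With median centring MUS81 was called lower, at -0.48 (adjusted p = 0.0139), and it was at -0.68 (adjusted p = 0.0952) with scaling to hybridisation controls. GEN1, a resolvase of crossed strands, fell by 0.80 ± 0.23 (adjusted p = 0.00450), with a change of -0.46 in wt and -1.14 in wt/GFP. Its call was lost without the wt/GFP monolayer (adjusted p = 0.110) or wt/GFP spheroid array (0.0507), and with the mean of probe sets (-0.47, adjusted p = 0.198). SLX4, the scaffold of the nucleases, had a log2 change of -0.30 ± 0.33 (adjusted p = 0.487).

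The checkpoint kinases divided, with both effector kinases lower and ATM higher in spheroids. CHEK1, the effector kinase that slows the cycle when replication stalls, had signals of 2062 and 2282 in monolayers and 800.0 and 772 in spheroids. CHEK2, the effector kinase of the break response, had 1309 and 1059 in monolayers and 671 and 776 in spheroids. Neither overlapped, and CHEK1 fell by 1.45 ± 0.13, or 2.73-fold (adjusted p = 5.66e-10), and CHEK2 fell by 0.70 ± 0.15 (adjusted p = 0.000350). The CHEK2 call was lost without the wt monolayer array (adjusted p = 0.0584). ATM, the kinase that senses breaks and activates CHEK2, had signals of 279 and 175 in monolayers and 556 and 463 in spheroids. Each spheroid signal was above both monolayer signals, and ATM rose by 1.15 ± 0.21, or 2.22-fold (adjusted p = 4.48e-05). The log2 change of ATM was 0.84 with quantile normalization, 0.76 with median centring and 0.56 with scaling to hybridisation controls, where it did not pass (adjusted p = 0.162). ATR, the kinase that answers stalled forks and activates CHEK1, had 1586 and 1503 in monolayers and 1744 and 1809.7 in spheroids, a log2 change of 0.20 ± 0.13 (adjusted p = 0.194).

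By probe set, 34 of 75 tested probe sets of the repair genes fell and 7 rose, against 16.1% and 26.6% of all 27038 tested probe sets. The shares were 45.3% and 9.33%. Of 20 genes with several tested probe sets, FANCI, BRIP1, RAD51C and EME1 were lower by every one, and 6 had none that passed. CHEK1 had probe sets called in both directions, 3 lower, by 1.45, 0.73 and 1.83, and 1 higher, by 1.71 ± 0.46 (adjusted p = 0.00324). The probe set that rose was dim, with signals of 35.3 and 23.9 in monolayers and 97.5 and 166 in spheroids. ATM rose by 3 of its 5 tested probe sets, by 1.15, 1.22 and 1.23. FANCF and RAD50 each had 1 probe set that rose while their brightest did not pass. The second probe set of FANCF had signals of 97.6 and 136 in monolayers and 288 and 358 in spheroids, and rose by 1.37 ± 0.26 (adjusted p = 8.06e-05). The RAD50 probe set had 143 and 141 in monolayers and 355 and 333 in spheroids, and rose by 1.20 ± 0.24 (adjusted p = 0.000195). A dim probe set of FANCM fell by 2.04 ± 0.62 (adjusted p = 0.00938), with signals of 91.3 and 70.5 in monolayers and 5.08 and 13.5 in spheroids. It passed the filter through its monolayer signals, as both spheroid signals were below the filter level. Which transcripts these probe sets detect was not examined. The 6 probe sets below the filter belonged to FANCC, RAD51B, MRE11, ATM and ATR, and 1 of the 2 of MRE11 had signals of 7.04 and 3.03 in monolayers and 66.9 and 62.1 in spheroids.

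**Figure D3:**
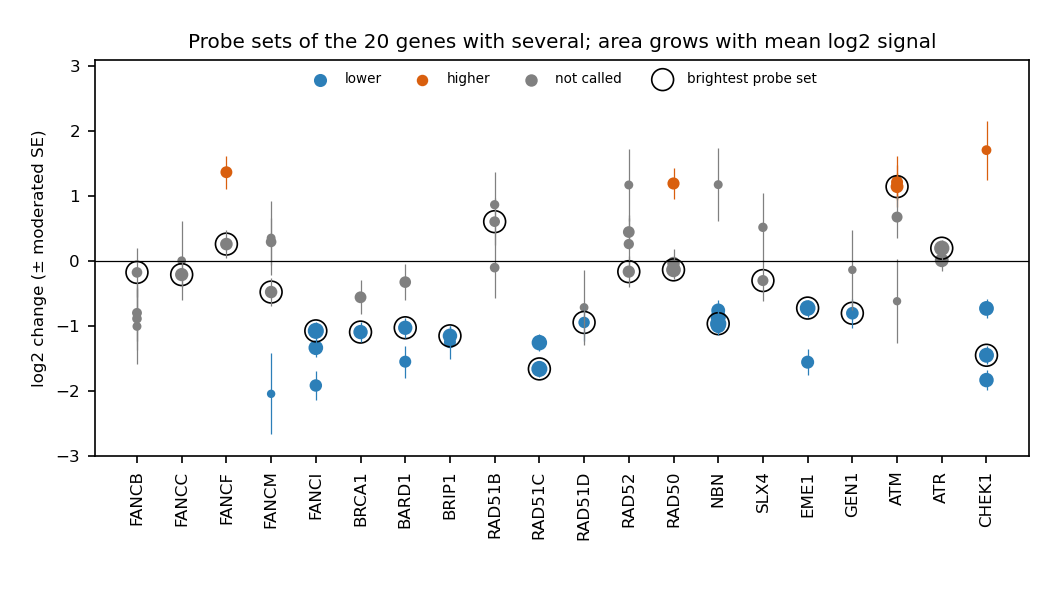
Log2 change with its moderated SE for every tested probe set of the 20 repair genes with several, coloured by call, with a ring around the brightest probe set of each gene. FANCI, BRIP1, RAD51C and EME1 lie below 0 by every probe set. CHEK1 alone has probe sets called in both directions, of which that called higher is dim and passed the filter through its spheroid signals.

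Other genes of these pathways were listed beside the repair genes above. Of 43 tested, 23 (53.5%) fell and 5 (11.6%) rose, against 18.5% and 30.6% of all genes, with a median log2 change of -0.36 against 0.23. The difference from all genes was not tested. EXO1, an exonuclease that extends trimmed ends, fell by 2.56 ± 0.17, and CLSPN, the adaptor through which ATR activates CHEK1, fell by 1.92 ± 0.21. H2AX, the histone marked at breaks, fell by 1.89 ± 0.12, and MND1, a partner of the strand exchange machinery, fell by 1.88 ± 0.13. USP1, which removes ubiquitin from the FANCD2 and FANCI clamp, fell by 1.50 ± 0.11. These 5 genes had the largest falls on that list, with adjusted p-values from 2.04e-13 to 1.20e-08. ERCC4, a nuclease subunit that cuts at crosslinks, rose by 0.84 ± 0.20 (adjusted p = 0.000749), but did not pass after median centring (0.45, adjusted p = 0.0597) or scaling to hybridisation controls (0.25, adjusted p = 0.584).

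End joining genes, which repair breaks without a sister copy, had calls in both directions. Of 14 tested, 5 (35.7%) fell and 3 (21.4%) rose, against 18.5% and 30.6% of all genes, with a median log2 change of -0.15 against 0.23. XRCC4, the partner of the end joining ligase, fell by 1.30 ± 0.12 and APTX, which clears blocked ends, fell by 1.07 ± 0.13 (adjusted p = 1.37e-09 and 7.95e-08). XRCC5 and XRCC6, which form the Ku ring around broken ends, fell by 0.58 ± 0.12 and 0.51 ± 0.13 (adjusted p = 0.000213 and 0.00167). For XRCC6 the call was lost without the wt monolayer (adjusted p = 0.0734), wt spheroid (0.112) or wt/GFP spheroid array (0.115). POLM and POLL, gap-filling polymerases, rose by 1.52 ± 0.49 and 1.42 ± 0.42 (adjusted p = 0.0107 and 0.00627) from monolayer signals of 39.2 and 20.5 for POLM and of 35.7 and 51.7 for POLL. Without the wt/GFP spheroid array neither passed (adjusted p = 0.127 and 0.333), and POLM did not pass without the wt/GFP monolayer array (0.0528). With scaling to hybridisation controls neither passed, nor did POLM with quantile normalization (adjusted p = 0.0620). The wt/GFP monolayer signal of POLM lay below the filter level, and POLM met the filter through its spheroid signals. The difference between the lists was not tested.

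**Figure D4:**
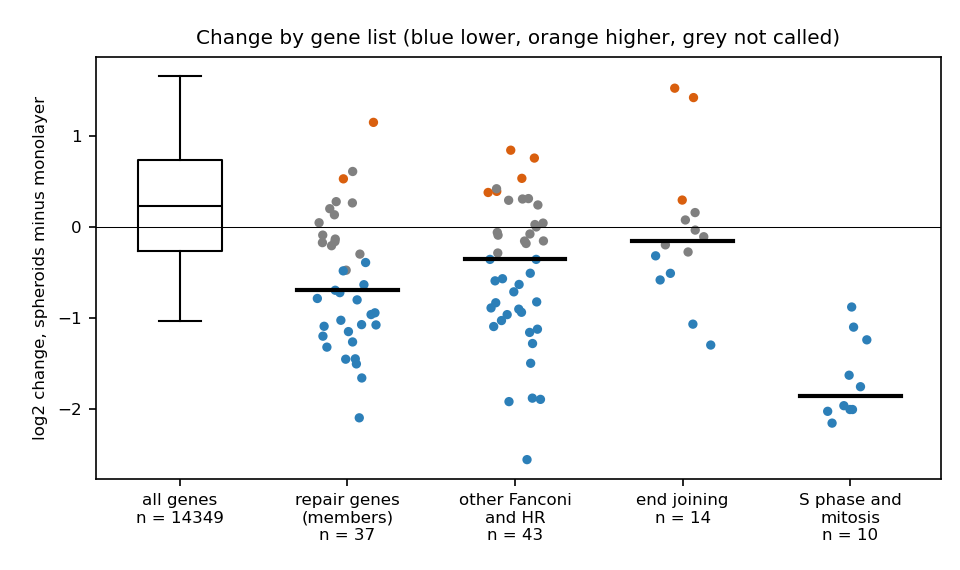
Log2 change, spheroids minus monolayer, for all 14349 tested genes (box with quartiles, whiskers at the 5th and 95th percentiles) and for each tested gene of 4 lists (points coloured by call, bar at the median). The medians are 0.23 for all genes, -0.70 for the 37 repair genes, -0.36 for other genes of the pathways, -0.15 for end joining and -1.86 for S phase and mitosis.

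The S phase and mitosis genes that fell beside the repair genes had log2 changes between -2.15 and -0.88. CCNA2, a cyclin of S and G2 phase, fell by 2.15 ± 0.12, and MKI67, the proliferation antigen, fell by 1.75 ± 0.13. RAD51AP1, with its fall of 2.10, was the 1 repair gene that fell by more than 2 log2 units, whereas CCNA2, CCNE2, MCM2 and CCNB1 all did. Of the 37 repair genes, 12 lay at or below the 5th percentile of the changes of all genes, and their median percentile was 10.9.

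Other scalings of the arrays moved the median of all genes down, so they give little test of whether a fall holds. With the deposited scaling 22 repair genes were called lower, against 24 when quantiles were matched, 26 when medians were centred and 24 when the 18 hybridisation control probe sets were matched. In the same order 18.5%, 21.1%, 32.3% and 26.1% of all genes were called lower. The hybridisation controls were brighter in spheroids, with a median difference over the 18 probe sets of 0.39 log2 units in wt and 0.79 in wt/GFP. The same 22 genes were called lower under all 4 scalings. The median change of all genes was 0.23, 0.020, -0.17 and -0.37 in that order, and that of the repair genes was -0.70, -0.82, -1.09 and -1.29. Relative to all genes, the median of the repair genes was -0.92, -0.84, -0.92 and -0.92. Centring on medians or controls shifts all genes of an array alike and so cannot change this distance. ATM was called higher under 3 scalings and 0 repair genes under all 4. In the same order 30.6%, 23.8%, 16.4% and 6.84% of all genes were called higher.

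**Figure D5:**
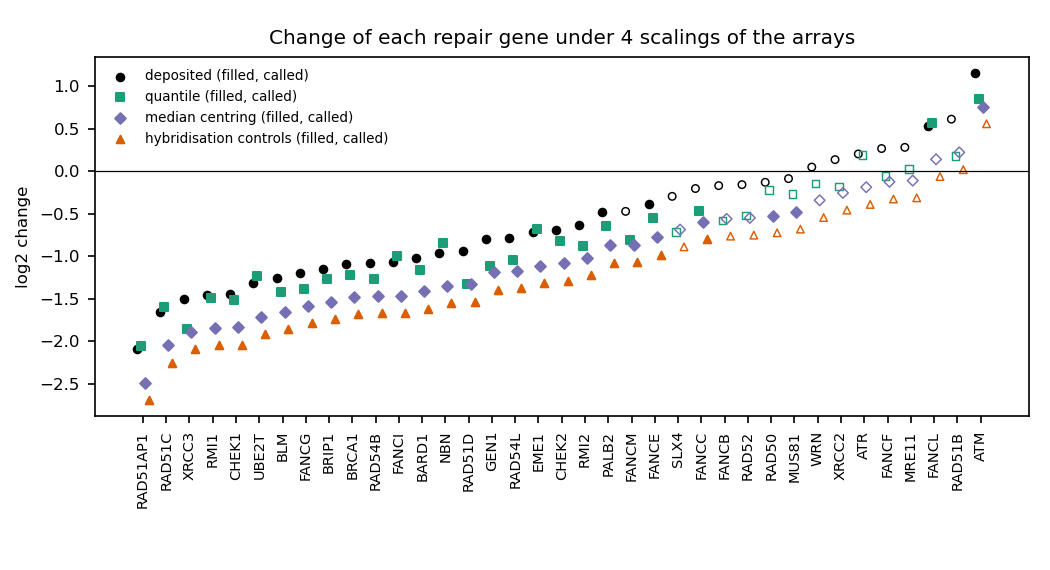
Log2 change of each of the 37 repair genes under 4 scalings (as deposited, quantiles, medians, hybridisation controls), with filled symbols where the gene was called. The 22 genes called lower with the deposited scaling have filled symbols under all 4, while ATM is open and FANCL lies below 0 after scaling to hybridisation controls.

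Between the lines, 0 of 37 repair genes were called, against 0.0279% of all tested genes (limma, smallest adjusted p = 0.693). The largest log2 difference, wt/GFP minus wt, was 0.70 for XRCC3, and that of ATM was -0.44. The culture change was lower in wt/GFP than in wt for 21 of 37 repair genes and for 51.1% of all genes. Across the repair genes the changes in the 2 lines had a Pearson r of 0.867, which is a description over 37 genes that share the 4 arrays. The median absolute difference between the changes of the lines was 0.30 for the repair genes and 0.27 for all genes. RMI1, BRCA1 and BRIP1 were among the genes with the larger fall in wt/GFP, with -1.76, -1.39 and -1.39, against -1.15, -0.79 and -0.90 in wt. CHEK2 had the larger fall in wt, -0.95 against -0.44.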

How the data were processed

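Array signals of HCT116 wt and HCT116 wt/GFP cells in monolayers and spheroids were analysed. The authors deposited intensities on a linear scale, made with MAS5 per the submitters' processing notes. Its version and parameters were not stated in the sources read. The method scales each array to a common trimmed mean, so a broad change in RNA content is not visible. Probe sets were named from the platform annotation and updated through gene identifiers in a RefSeq table (GRCh38.p14). Of all probe sets, 41091 had 1 symbol, 1801 several and 11721 none, and those with several or none were not used.

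Signals were transformed as log2(signal + 14.0), where 14.0 is the 25th percentile of the signals. This scale underlies each fold change and understates those of dim genes. Probe sets above the 40th percentile of mean log2, 5.48, were kept, and each gene took its brightest one. limma 3.58.1 in R 4.3.3 fitted culture and cell line over all 4 arrays, with empirical Bayes moderation and a trend, 1 residual and 25.9 prior degrees of freedom. The SE of a gene thus rests mainly on genes of like signal. P-values are two-sided and were adjusted by Benjamini and Hochberg's method across every gene or probe set tested. The pairing comes from the cell line in the labels, and across genes the line differences in monolayers and spheroids had a correlation of 0.00684. Every gene on the list may be named, and up to 6 with the largest change on each other list. The genes and lists were chosen with earlier results of these data known. The fit was run on data simulated from its own variances, with no line effect. Such data cannot show whether calls on these arrays hold. Alternatives were other scalings, pseudocounts, filters, probe set rules, fits and thresholds, and leaving out each array. The number of arrays limits the precision.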

Additional observations from a re-analysis of the deposited data

Results flagged for a closer look

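The change of 3 repair genes went opposite ways in the 2 lines, which 19.2% of all tested genes also did. By its brightest probe set, FANCB was higher in wt spheroids and lower in wt/GFP spheroids. The difference between the log2 changes, wt/GFP minus wt, was -1.11. WRN went the other way, with a difference of 0.68, and so did MUS81, with 0.24. With 1 array for each line and culture, these differences were not tested. The other tested probe sets of FANCB, all dim, had log2 changes below 0 in both lines. In wt and wt/GFP they were -0.54 and -1.05, -1.47 and -0.30, and -1.93 and -0.076.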

How the results depend on the processing

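With 4 arrays and 1 residual degree of freedom, the calls lean on moderation across genes. Without the trend, 15 repair genes were lower and 1 higher, and 17 probe sets were lower and 4 higher. Of all genes 8.18% were then lower and 18.4% higher. The genes whose calls this ended were CHEK2, EME1, FANCE, GEN1, PALB2, RAD54L and RMI2, lower, and FANCL, higher. With a 2-fold minimum, 13 were lower and 1 higher, with 21 probe sets lower. Higher repair genes numbered 1 after median centring and 0 after scaling to hybridisation controls, against 16.4% and 6.84% of all genes. After the latter scaling 0 probe sets of the repair genes were higher. The median change of the repair genes was -0.82 after quantile normalization, -1.09 after median centring, -1.29 after scaling to hybridisation controls, -0.57 with the mean of probe sets and -0.56 without shared probe sets. Leaving out 1 array, with no replicate block since none could be fitted, gave a median of -0.65 to -0.62 for the repair genes. That of all genes was 0.19 to 0.25 in these fits. Without the replicate block, which pairs arrays by cell line, 22 genes were lower and 2 higher, 33 probe sets were lower and 7 higher, and no gene changed its call. Of the 22 lower genes, 14 were called with each array left out and 12 under every alternative that could be fitted. Between the lines, 0 genes were called under each alternative with a line term.

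Signs turned for genes that were not called, apart from FANCL (-0.065 after scaling to hybridisation controls) and NBN (1.18 without shared probe sets, where 1 dim probe set remained). After quantile normalization FANCF had -0.060, XRCC2 -0.18 and WRN -0.14. After median centring FANCF had -0.13, XRCC2 -0.26, MRE11 -0.11, WRN -0.34 and ATR -0.19. After scaling to hybridisation controls FANCF had -0.33, XRCC2 -0.46, MRE11 -0.32, WRN -0.55 and ATR -0.39, and the median of the epithelial markers was -0.20. With the mean of probe sets RAD52 had 0.43, RAD50 0.35 and SLX4 0.11, and the median of the end resection genes was 0.28. Without shared probe sets FANCC had 0.0084, FANCM 0.36 and RAD52 0.45, and the medians of the end resection genes and checkpoint kinases were 0.58 and 0.015. With 1 array left out, MUS81 had -0.20 to 0.023, FANCB -0.63 to 0.29 and WRN -0.13 to 0.22. The cause of these turns was not tested.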
